A study of Homo sapiens with 5 samples.

Results

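The HOX genes encode homeodomain transcription factors and lie in 4 clusters in the human genome, HOXA on chromosome 7, HOXB on chromosome 17, HOXC on chromosome 12 and HOXD on chromosome 2. A fixed list of symbols gave 38 HOX genes of the 20033 protein-coding genes annotated on hg38, 10 in HOXA, 10 in HOXB, 9 in HOXC and 9 in HOXD. Replication origins at these genes were read from 4 lists made from EJ30 cells, an established human bladder carcinoma line. For ini-seq 2, nuclei of EJ30 cells held in late G1 phase by mimosine were incubated with cytosolic extract of HeLa cells, a cervical carcinoma line, and Br-dUTP, for either 3 hours or 15 minutes. Replicated DNA is then heavy on 1 strand (HL) and unreplicated DNA is light on both (LL), and the efficiency of an origin is HL/(HL + LL) in its interval. SNS-seq instead recovers short nascent strands from the cells, here as a 0.5 to 2 kb and a 2 to 4 kb pool. The lists held 23905 origins at 3 hours, 10181 origins at 15 minutes, and 147529 and 184832 SNS-seq peaks of the smaller and the larger strands on the chromosomes used. Each condition is represented by 1 list without read counts, and the 3-hour list pools 2 biological replicates. The depth behind an origin and the spread between replicates are therefore unknown, no difference was tested, and the 95% Clopper-Pearson intervals given with shares cover counting error alone.

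HOX proteins give cells along the head-to-tail axis their regional identity, and the order of the genes in a cluster follows the order of the body regions in which they act. Genes with the same number in different clusters descend from 1 ancestral gene and form a paralogue group, with groups 1 to 3 called anterior, 4 to 8 central and 9 to 13 posterior here. The clusters are compact and rich in CpG, and in differentiated cells large stretches of them are held silent by Polycomb proteins or kept active by Trithorax proteins. Expression and chromatin of EJ30 cells were not analysed here.

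The 4 cluster spans, each taken from the outermost member genes plus 2 kb, held 54 origins at 3 hours. The most efficient origin of each span had an efficiency of 0.9504 in HOXA, 0.9592 in HOXB, 0.9105 in HOXC and 0.9784 in HOXD. The HOXA origin, chr7:27130101-27131300, covered the 5′ end of HOXA4 and bases that code for its protein. The HOXB origin covered no coding sequence and lay in the long gene records of HOXB3 and the antisense transcript HOXB-AS3. The HOXC origin overlapped coding sequence of HOXC11 and the annotated start of HOTAIR, a long non-coding RNA. The HOXD origin, chr2:176107901-176108200, overlapped coding sequence of HOXD11. A stretch of 240 bases of the HOXA and the HOXD origin, free of annotated UTR and read on the plus strand of hg38, shows the sequence at which these 2 origins were called, with capitals for letters that belong to a G-quadruplex (G4) motif on either strand. The motif needs 4 stretches of 3 or more G, set apart by 1 to 7 other bases.
HOXA4, chr7:27130321-27130560: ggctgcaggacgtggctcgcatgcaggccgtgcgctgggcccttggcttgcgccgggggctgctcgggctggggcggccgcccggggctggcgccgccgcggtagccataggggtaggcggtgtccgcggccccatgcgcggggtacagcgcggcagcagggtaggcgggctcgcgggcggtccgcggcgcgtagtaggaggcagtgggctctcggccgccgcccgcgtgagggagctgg
HOXD11, chr2:176107956-176108195: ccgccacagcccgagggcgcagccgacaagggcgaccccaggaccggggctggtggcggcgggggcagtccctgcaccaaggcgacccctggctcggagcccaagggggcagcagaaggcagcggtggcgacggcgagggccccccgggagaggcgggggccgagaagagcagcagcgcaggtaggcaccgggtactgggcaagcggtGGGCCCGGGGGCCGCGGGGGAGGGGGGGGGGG
The HOXD stretch carried 32 motif letters and the HOXA stretch 0. Both had a GC content of 78.8%, with 34 CG dinucleotides in HOXA and 23 in HOXD. Over whole origins, a G4 motif was found in 41 of the 54 HOX origins (75.9%) and in 71% of all 3-hour origins, so its share was close to that of the list.

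Most HOX genes carried an origin at 3 hours. An origin overlapped the gene record or lay within 2 kb of its 5′ end at 31 of 38 HOX genes (81.6%, interval 65.7 to 92.3%), against 66.4% of all protein-coding genes. At 15 minutes this held for 22 of 38 (57.9%, interval 40.8 to 73.7%), against 46.9%. The records of HOXA3, HOXB3, HOXB7, HOXC4, HOXC6 and HOXD3 run across neighbouring HOX genes, so that 1 origin can count for several members. Restricted to 2 kb around the 5′ end, 25 of 38 HOX genes had a 3-hour origin (65.8%, against 57.5% of all genes) and 14 of 38 a 15-minute origin (36.8%, against 40.4%). The 5′ end itself lay inside a 3-hour origin at 14 HOX genes (36.8%, against 42.5%) and inside a 15-minute origin at 6 (15.8%, interval 6.02 to 31.3%, against 26.7%). Each of these background shares lay within the interval of the HOX share, so none of these 6 ini-seq 2 counts stood apart from all genes by counting error. The 3-hour count near the 5′ end depended on the end used. With the 5′ end of any transcript it was 31 of 38 (81.6%, interval 65.7 to 92.3%, against 63.6%), and within 5 kb it was 32 of 38 (84.2%, interval 68.7 to 94%, against 60.8%), so that the share of all genes lay below both intervals. At 15 minutes the counts were 20 (52.6%, against 45.4%) and 17 (44.7%, against 42.8%). Neighbouring HOX 5′ ends lie close together, so in these 2 settings too 1 origin can count for several members. The intervals treat genes as independent. The spans also held 10.2 origins at 3 hours per 100 kb, against 0.774 over the genome, and the part of this density was not tested.

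**Figure D1:**
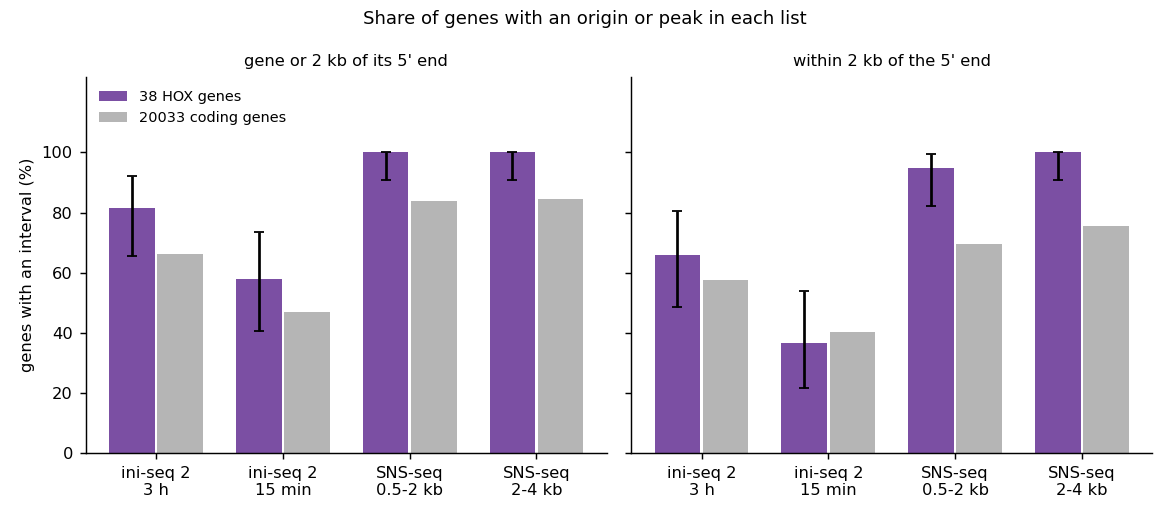
Percentage of the 38 HOX genes (purple, with 95% Clopper-Pearson intervals) and of all 20033 protein-coding genes (grey) with an interval in each of the 4 lists, for the gene or 2 kb of its 5′ end (left) and for 2 kb of the 5′ end alone (right). The HOX bars stand at 81.6, 57.9, 100 and 100% on the left and at 65.8, 36.8, 94.7 and 100% on the right, and the 15-minute bar on the right is the one that stands below its grey bar.

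There were 10 origins at 3 hours in HOXA, 17 in HOXB, 12 in HOXC and 15 in HOXD, or 9.64, 8.32, 9.90 and 14.7 per 100 kb, against 0.774 per 100 kb over the genome. The median efficiency was 0.9103 in HOXA, 0.8765 in HOXB, 0.8712 in HOXC and 0.9105 in HOXD, with 0.8726 over the list. When the 3-hour list is divided into 3 classes of equal size, low, medium and high, at 0.8419 and 0.9065, 33.3% of all origins are of high efficiency. In HOXD 9 of 15 origins were in this class (60%, interval 32.3 to 83.7%) and in HOXA 5 of 10 (50%, interval 18.7 to 81.3%). HOXB had 2 of 17 (11.8%, interval 1.46 to 36.4%) and HOXC 1 of 12 (8.33%, interval 0.211 to 38.5%). The interval of each cluster included the share of the list, and no difference between clusters was tested. HOXB13, which acts in the prostate and the tail end of the embryo, lies far from the rest of HOXB, and without it that cluster held 14 origins at 12.8 per 100 kb.

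**Figure D2:**
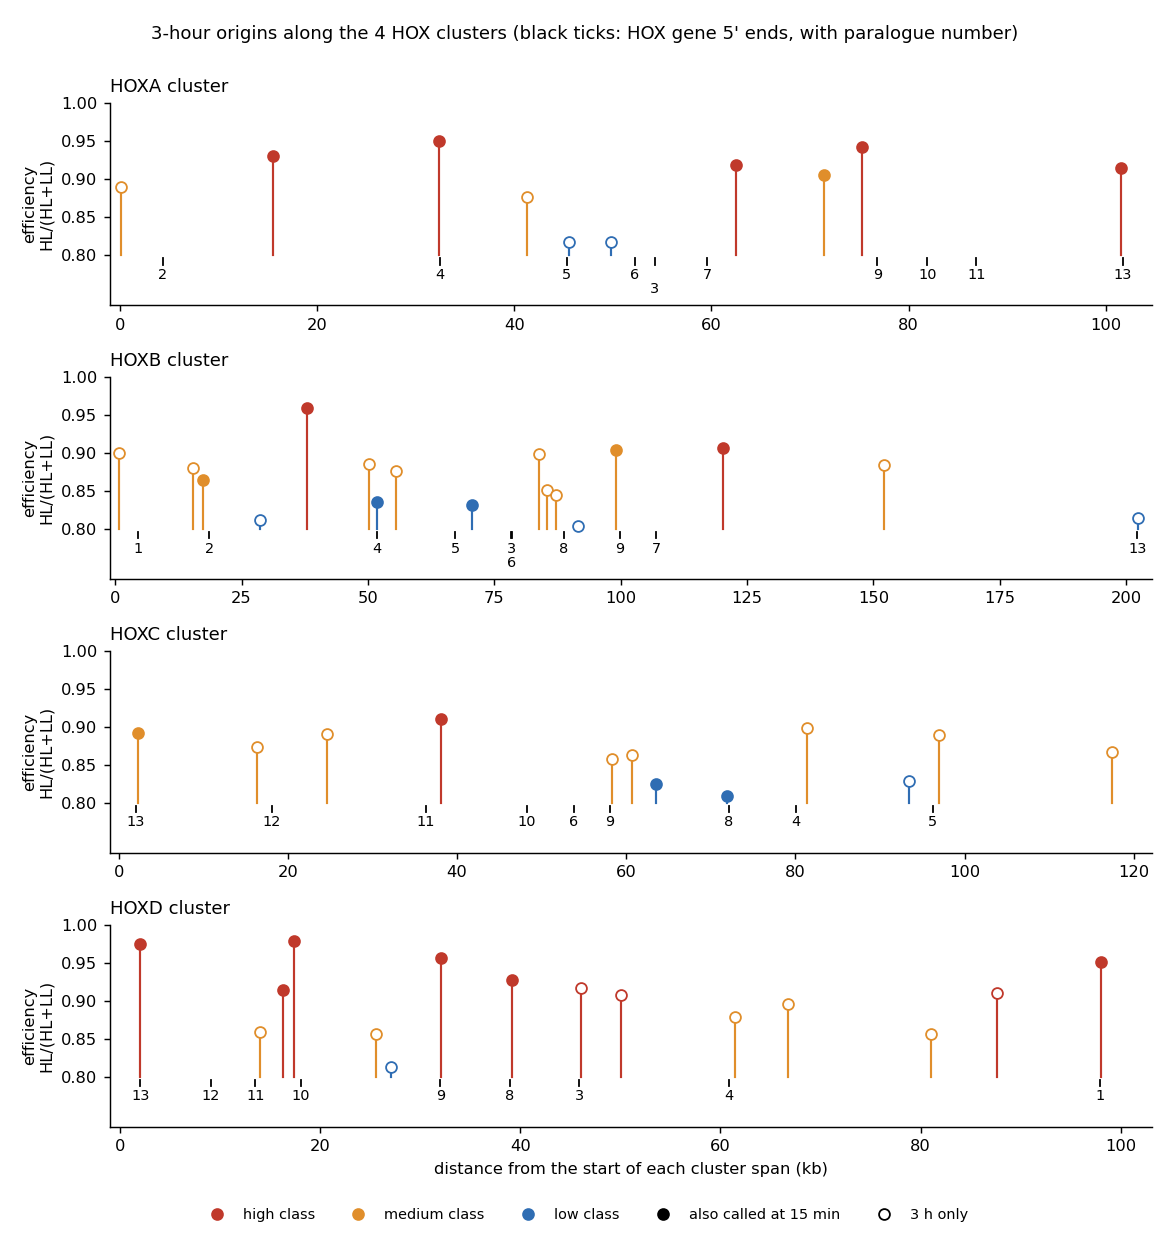
Efficiency of each 3-hour origin (vertical axis) against its distance in kb from the start of the cluster span, for HOXA, HOXB, HOXC and HOXD. Colour gives the class, filled circles were also called at 15 minutes, and black ticks with paralogue numbers mark the 5′ ends of the HOX gene records. Red high efficiency origins number 5, 2, 1 and 9 in the 4 panels.

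The 5 high efficiency origins of HOXA lay over HOXA4, over HOXA13, between HOXA7 and HOXA9, in the record of HOXA3 and in the records of HOXA9 and HOXA10. HOXA4 had the highest value at a 5′ end of this cluster, 0.9504, and its 15-minute origin, as long as the 3-hour origin at 1200 bp, had a Z-score of 0.0379. The Z-score places an origin within the 15-minute list, whose values have a mean of 0 and are in units of their standard deviation. HOXA13, needed for the hand, foot and urogenital tract, lay in an origin of 0.9148 whose 15-minute Z-score of 1.13 was the highest in the clusters. HOXA9, a gene active in blood progenitors and leukaemia, had an origin of 0.9420 near its annotated 5′ end, in the records of HOXA9 and HOXA10. HOXA5 lay in an origin of 0.8179, and HOXA6 had one of 0.8178 at 1503 bp from its 5′ end. Neither had a 15-minute origin. The HOXA5 origin, chr7:27142101-27145700, was the longest in the clusters at 3600 bp.

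In HOXB 10 origins were of medium and 5 of low efficiency. Its highest value at a 5′ end was 0.9039 at HOXB9, in the longest origin of the cluster (chr17:48624601-48626800, 2200 bp), and its lowest was 0.8147 at HOXB13. HOXB4, which promotes the growth of blood stem cells, had origins of 0.8862 and 0.8363 within 2 kb of its 5′ end. The less efficient of these held the 15-minute origin with the highest Z-score of HOXB, 0.430. An origin of 0.9075 lay outside the coding genes, over the starts of LINC03057 and LINC02086, and it was also called at 15 minutes.

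In HOXC the efficiencies ran from 0.8098 to 0.9105. HOXC11 had the highest origin near a 5′ end, 0.9105, at a distance of 1575 bp, with identical intervals of 500 bp at both times. HOXC13, known for its role in hair and nails, lay in an origin of 0.8920 with a 15-minute Z-score of -1.5. HOXC8 lay in the lowest, 0.8098. The longest origin of the cluster was chr12:53999301-54001300, 2000 bp, over the coding start of HOXC9, with an efficiency of 0.8249.

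The 2 most efficient origins of the 4 clusters lay in HOXD. HOXD13, the most posterior gene and a regulator of digits, lay in an origin of 0.9751, which ranks above 97.9% of the list. HOXD9 lay in an origin of 0.9561, HOXD1 in one of 0.9512, HOXD8 in one of 0.9277 and HOXD3 in one of 0.9174. All of these but HOXD3 were also called at 15 minutes. The longest, chr2:176128801-176130900 at HOXD8, 2100 bp, had the highest 15-minute Z-score of the cluster, 0.844. The lowest value near a 5′ end in HOXD was 0.8601 at HOXD11, although the origin of 0.9784 lies in this gene too and counts as near the 5′ end of HOXD10.

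Of the 54 HOX origins at 3 hours, 22 were also called at 15 minutes (40.7%, interval 27.6 to 55%), against 40.1% of the list. Among high efficiency origins 14 of 17 were also called early (82.4%, against 84.3% of that class in the list), among medium ones 4 of 26 (15.4%, interval 4.36 to 34.9%, against 31.7%), and among low ones 4 of 11 (36.4%, interval 10.9 to 69.2%, against 4.55%). The 4 low origins were those of HOXB4 (0.8363), HOXB6 (0.8319), HOXC9 (0.8249) and HOXC8 (0.8098). Low origins of the clusters had a median length of 1300 bp, against 600 bp for the class, and a longer interval can meet a 15-minute interval more easily. When at least 50% of the 3-hour origin had to be covered, 0 of the 11 low HOX origins counted, and 0.150% of that class in the list. The part of length in the low class was not tested.

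At these 4 sites the 15-minute interval was a short, GC-rich piece of, or at the edge of, a longer origin. The interval was 400 bp in an origin of 1400 bp at HOXB4, 300 bp in 2000 bp at HOXB6 and at HOXC9, and 300 bp against 800 bp at HOXC8. Its GC content was higher than that of the 3-hour origin at all 4, by 5.20 to 15.2 percentage points. The same held in 371 of 374 such pairs of the list (99.2%). Stretches of the 15-minute intervals at HOXB6 and HOXC9 are shown to make the base composition visible. The HOXC9 stretch is coding sequence, and the HOXB6 stretch, from a gene on the minus strand, begins in an intron and runs into coding sequence. Both are read on the plus strand of hg38 with CG dinucleotides in capitals.
HOXB6, chr17:48597701-48597940: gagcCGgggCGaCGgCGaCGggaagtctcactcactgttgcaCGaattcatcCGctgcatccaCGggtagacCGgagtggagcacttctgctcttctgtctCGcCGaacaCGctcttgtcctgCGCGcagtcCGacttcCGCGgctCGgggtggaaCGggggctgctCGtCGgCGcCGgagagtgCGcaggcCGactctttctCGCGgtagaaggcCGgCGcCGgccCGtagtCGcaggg
HOXC9, chr12:54000401-54000640: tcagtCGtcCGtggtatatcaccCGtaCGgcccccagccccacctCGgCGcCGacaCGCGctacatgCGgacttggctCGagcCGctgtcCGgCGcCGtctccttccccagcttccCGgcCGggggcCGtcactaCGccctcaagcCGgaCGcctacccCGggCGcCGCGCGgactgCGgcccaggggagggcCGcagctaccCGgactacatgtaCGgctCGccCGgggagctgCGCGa
These 240-base stretches hold 32 and 34 CG dinucleotides at a GC content of 67.5% and 73.3%.

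The 21 origins of the clusters called at 15 minutes all overlapped a 3-hour origin, against 95.1% of the 15-minute list, and no HOX gene had a 15-minute origin alone. They gave 22 overlapping pairs, since 1 interval of 1400 bp at HOXD11 covered 2 origins at 3 hours. The 3-hour origin was longer in 17 pairs, equal in 2 and shorter in 3, with a median ratio of 1.59 against 1.5 in the list. The 15-minute interval had the higher GC content in 20 of 22 pairs, with a median difference of 4.18 percentage points against 3.26 in the list. Of the 21 early origins 14 had a Z-score below 0 (66.7%, interval 43 to 85.4%), against 48.9% of all. HOXA had 2 of 6 below 0, HOXB 5 of 6, HOXC 3 of 4 and HOXD 4 of 5. HOXD9 and HOXC13 had Z-scores of -1 and -1.5 beside efficiencies of 0.9561 and 0.8920. Across the 22 pairs, which share sites between the 2 lists, efficiency and Z-score had a Pearson r of 0.11 and a Spearman rho of 0.24, against 0.36 and 0.38 over 9774 pairs of the list.

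A 3-hour origin lay within 2 kb of the 5′ end at 3 of 7 anterior, 10 of 15 central and 12 of 16 posterior genes. The shares were 42.9% (interval 9.9 to 81.6%), 66.7% (38.4 to 88.2%) and 75% (47.6 to 92.7%), against 57.5% of all genes. A 15-minute origin lay there at 2, 4 and 8 of them. These shares were 28.6% (3.67 to 71%), 26.7% (7.79 to 55.1%) and 50% (24.7 to 75.3%), against 40.4%. Each interval included the share of all genes. The 3-hour shares rose from anterior to posterior, while the 15-minute shares did not rise from anterior to central. The groups hold 7 to 16 genes, and a trend was not tested. The median of the highest efficiency at these ends was 0.9174 in anterior, 0.8824 in central and 0.9072 in posterior genes, with ranges of 0.8652 to 0.9512, 0.8098 to 0.9504 and 0.8147 to 0.9784 that overlapped. Over the 25 genes, efficiency against paralogue number had a Pearson r of 0.026 and a Spearman rho of 0.028, with neighbours that share a cluster, origins and base composition. Within the clusters r and rho were 0.3 and -0.2 over 5 genes of HOXA, -0.51 and -0.3 over 5 of HOXB, 0.037 and 0.036 over 7 of HOXC and 0.2 and 0.29 over 8 of HOXD, too few genes in each to read a slope. Every member of paralogue groups 4, 8, 9 and 13 had a 3-hour origin near its 5′ end, while group 7 had 0 of 2. These groups hold 2 to 4 genes each, too few to set apart from the 57.5% of all genes. The canonical starts of HOXA9 and HOXB7 lay 3564 and 217 bp from a 3-hour origin, so groups 9 and 7 depend on the end used. Within group 13 the values ran from 0.8147 at HOXB13 and 0.8920 at HOXC13 to 0.9148 at HOXA13 and 0.9751 at HOXD13. Within group 4 they were 0.8787 at HOXD4, 0.8862 at HOXB4, 0.8988 at HOXC4 and 0.9504 at HOXA4. At the other members with an origin in reach, HOXB2, HOXB8, HOXC5, HOXC9 and HOXC12, all in the medium class, the values lay between 0.8456 and 0.8898.

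**Figure D3:**
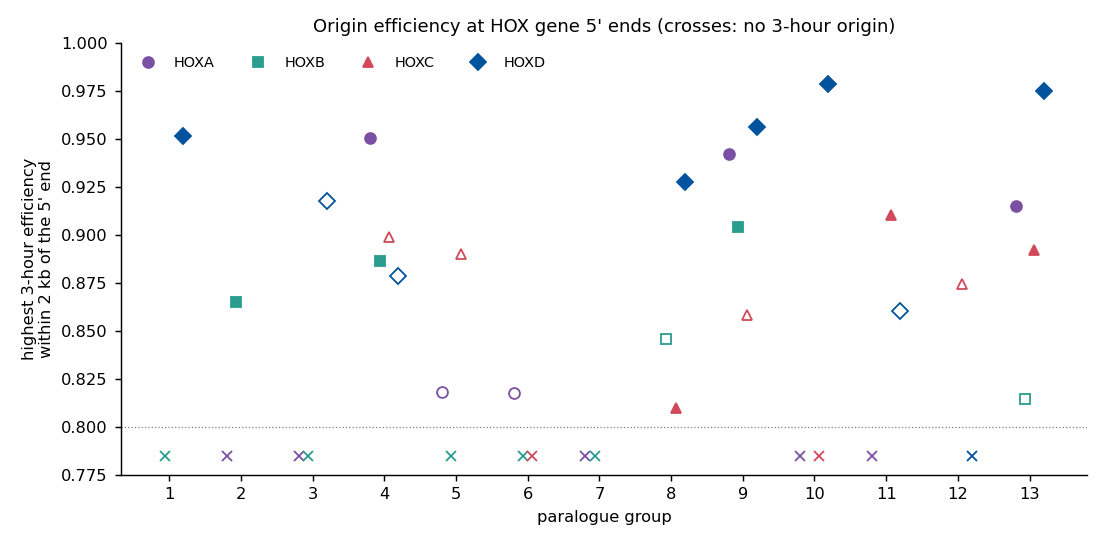
Highest efficiency of a 3-hour origin within 2 kb of the 5′ end (vertical axis) for each HOX gene by paralogue group. Filled symbols also have a 15-minute origin within 2 kb, and crosses below the dotted line at 0.8 are the 13 genes with no 3-hour origin there. Values of HOXD (blue diamonds) reach 0.9784, at HOXD10.

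The nearest origin usually lay on the transcribed side. Its centre was downstream of the 5′ end at 18 of 25 HOX genes (72%, interval 50.6 to 87.9%), against 76.8% of 11520 genes with an origin in reach. Among the 7 exceptions, HOXA5, HOXB4, HOXB13 and HOXC8 had low efficiency origins, whose centres lay at -220, -50, -100 and -284 bp from the 5′ end, negative values being upstream. The centres were at -20 bp for HOXD13, -740 bp for HOXD10 and -1752 bp for HOXC12. The annotated 5′ end matters here, because several HOX records begin at distal promoters. With the canonical transcript of each gene, an alternative chosen after seeing the data, 27 of 38 genes had an origin in reach (71.1%, against 60% of all genes) and 18 of the 27 centres were downstream (66.7%, against 70.2%).

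**Figure D4:**
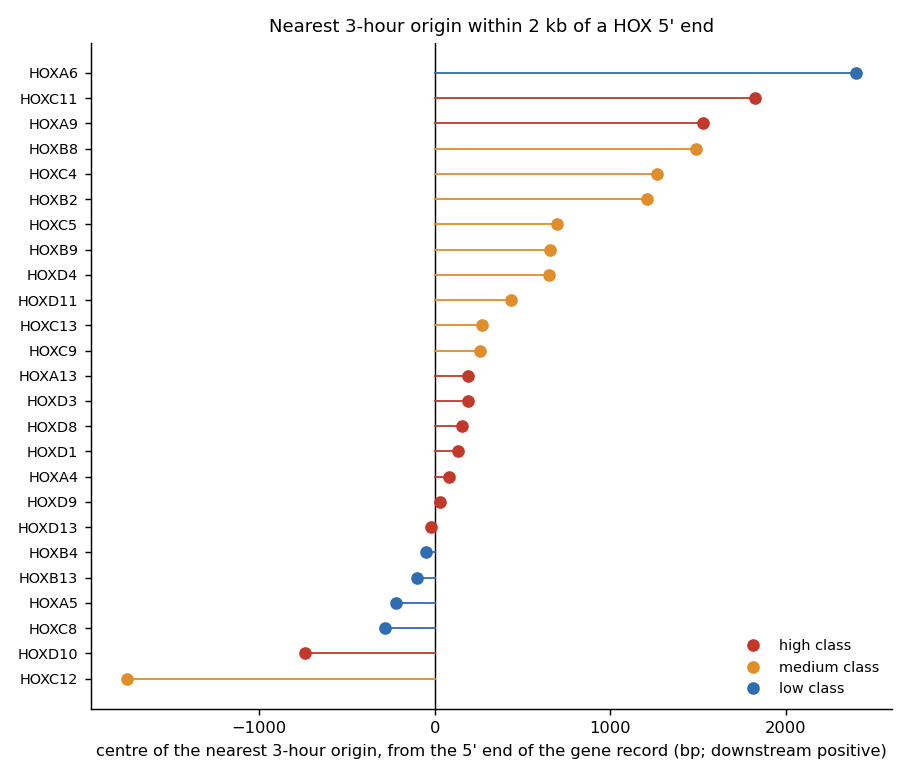
Distance in bp from the 5′ end of each of 25 HOX gene records to the centre of its nearest 3-hour origin, with downstream positive and colour for the efficiency class. The 7 centres to the left of the line lie upstream, and the farthest is that of HOXA6, centred 2402 bp downstream.

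Of the 54 HOX origins 18 lay over the annotated or canonical start of a coding gene (33.3%, against 40.5% of the list), with a median efficiency of 0.9002 against 0.9170. The other 36 had a median of 0.8824 against 0.8424, and 10 of them were called at 15 minutes (27.8%, against 18.3%). The starts of HOX genes held 6 low efficiency origins, those of HOXA5, HOXA6, HOXB4, HOXB13, HOXC9 and HOXC8, or 6 of 18, against 922 of 9685 start origins of the list. Away from starts, 9 of 36 were of high efficiency, against 2361 of 14220.

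Efficiency in the clusters was higher at higher GC content. Over the 54 origins, Pearson r was 0.71 and Spearman rho 0.69, against 0.67 and 0.77 in the list, and within single clusters r ran from 0.55 in HOXD to 0.84 in HOXB. Origins share neighbours and base composition, so these are descriptions. The richest origin, of 80.7% GC in HOXD11, was also the most efficient, and the origin of lowest GC content, 53.4% at the canonical start of HOXD3, had an efficiency of 0.8966. Length was not related to efficiency in the same way, with r of -0.19. The part of GC content in the efficiency of the HOX origins was not tested.

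**Figure D5:**
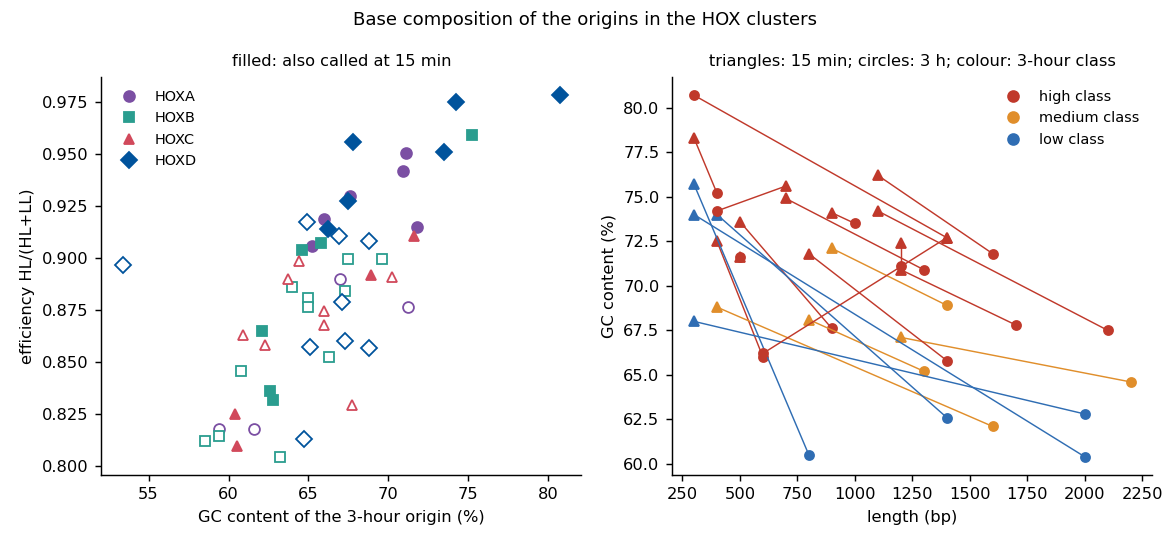
Left, efficiency against GC content (%) of the 54 HOX origins at 3 hours, filled where also called at 15 minutes. Right, GC content against length (bp) of each 15-minute origin (triangle) joined to the 3-hour origin it overlaps (circle), coloured by 3-hour class. Most lines fall to the right, since in 20 of 22 pairs the 15-minute interval has the higher GC content.

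Windows of high GC content were counted next. Of 75 windows of 1 kb with a GC content above 60%, 49 met a 3-hour origin (65.3%, interval 53.5 to 76%), against 48% of such windows in the genome. Neighbouring windows can meet the same origin, while the interval treats windows as independent. The counts were 13 of 21 in HOXA, 12 of 16 in HOXB, 10 of 18 in HOXC and 14 of 20 in HOXD. At 15 minutes it was 30 of 75 (40%, against 23.2%). Of the 26 windows without a 3-hour origin, 24 had peaks of both SNS-seq fractions. The share over such windows of the genome was not computed. Peaks of the smaller and the larger strands covered 25.4% and 55.9% of the bases of the spans, so a 1 kb window there can easily meet both. In the 500 bp to each side, GC content had a median of 60.9% at the 25 HOX genes with a 3-hour origin in reach and 57.4% at the 13 without, against 63.9% and 51.2% over all genes.

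Of the 13 HOX genes without a 3-hour origin near the 5′ end, HOXA3, HOXA10, HOXB3, HOXB6, HOXB7 and HOXC6 had 1 or more elsewhere in their records. The canonical starts of HOXA10, HOXB7 and HOXC6 lay 20, 217 and 1661 bp from a 3-hour origin. The canonical start of HOXA9 lay 3564 bp from one, so that the origin of 0.9420 counts for HOXA9 by its gene record and not by its canonical transcript. The 7 HOX genes without any ini-seq 2 interval were HOXA2, HOXA7, HOXA11, HOXB1, HOXB5, HOXC10 and HOXD12. HOXA2 and HOXB1 act in the hindbrain and branchial arches, HOXA11 and HOXD12 in the limbs and HOXC10 in the lumbar region. Their 5′ ends lay 4086, 2565, 10932, 3411, 2422, 9236 and 4706 bp from the nearest 3-hour origin, in the order given. None stood in AT-rich DNA, since GC content within 500 bp of their ends ran from 53.4% at HOXA2 to 62.6% at HOXD12. All 7 had SNS-seq peaks of both fractions within 2 kb of the 5′ end. Such peaks do not set the 7 apart, since 36 of 38 HOX genes had a small-strand and all 38 a large-strand peak there.

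SNS-seq marked the clusters more widely than ini-seq 2, and this also held over the genome. All 38 HOX genes had a peak of the 0.5 to 2 kb strands in the gene or within 2 kb of its 5′ end (against 83.8% of all genes), and all 38 a peak of the 2 to 4 kb strands (against 84.6%). Near the 5′ end the counts were 36 of 38 (94.7%, interval 82.3 to 99.4%, against 69.7%) and 38 of 38 (100%, interval 90.7 to 100%, against 75.6%). HOXA10 and HOXB13 were the 2 without a small-strand peak there. The 5′ end itself lay in a small-strand peak at 21 genes (55.3%, against 47.9%) and in a large-strand peak at 32 (84.2%, against 63.5%). In bases, the large-strand peaks covered 55.9% of the 4 spans, against 4.11% of the genome, and the small-strand peaks 25.4% against 2.19%. The 3-hour origins covered 9.96% against 0.76%, so they covered less than the peaks in the spans and in the genome alike. HOXA was covered to 69.1%, HOXC to 64.0%, HOXD to 63.6% and HOXB to 40.5% by the large-strand peaks. Without the distant HOXB13, the HOXB span was covered to 57.8%. The longest large-strand peak, 9392 bp, ran over 3 ini-seq 2 origins of HOXC9.

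All 54 HOX origins met an SNS-seq peak (100%, interval 93.4 to 100%, against 91.6% of the list), and 46 met both fractions (85.2%, interval 72.9 to 93.4%, against 77.7% of the list). Large-strand peaks covered 55.9% of the spans against 4.11% of the genome, and small-strand peaks 25.4% against 2.19%. An origin in the spans can therefore meet a peak more easily. Overlap counted from the peaks was less frequent. Of 185 small-strand peaks in the spans 59 met a 3-hour origin (31.9%, interval 25.2 to 39.1%, against 16.1% of all such peaks), and of 230 large-strand peaks 53 did (23%, interval 17.8 to 29%, against 11.9%). The spans were denser in origins, which covered 9.96% of their bases against 0.76% of the genome, so a peak there can meet one more easily. The median peak was also longer in the HOX spans, and long peaks meet more intervals. It was 379 bp against 284 bp for small and 689.5 bp against 340 bp for large strands. The parts of peak coverage, origin density and peak length were not tested.

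The clusters also hold microRNA genes. MIR196B lay inside the medium efficiency origin chr7:27169101-27170400 of HOXA (0.9059), which was also called at 15 minutes. MIR615 lay inside chr12:54033301-54034200 at HOXC5 (0.8898), called at 3 hours alone. MIR10A, MIR10B, MIR196A1 and MIR196A2 lay 738, 1389, 5690 and 2454 bp from the nearest origin. The miR-196 genes of 3 clusters, which repress HOX transcripts, make mature RNAs that share a seed (bases 2 to 8, in capitals), and 1 of these 3 loci lay in an origin. The sequences are those of RefSeq on GRCh38.
miR-196b-5p, MIR196B: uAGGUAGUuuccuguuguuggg
miR-196a-5p, MIR196A1 and MIR196A2: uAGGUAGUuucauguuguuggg
miR-615-3p, MIR615: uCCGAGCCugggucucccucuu
Of all 23 listed non-coding genes of the clusters, 19 had a 3-hour origin (82.6%, interval 61.2 to 95%) and 13 a 15-minute origin (56.5%, interval 34.5 to 76.8%). The share over all non-coding genes was not computed, and many of these genes overlap HOX genes and share their origins. HOTTIP, which is transcribed next to HOXA13, shared its origin of 0.9148. HOXA11-AS, HOXC-AS3, MIR196A1 and MIR196A2 had no 3-hour origin by this rule.

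Genes that act with or on HOX genes were read by the same rule, a gene or the 2 kb at its 5′ end. All 9 genes of the TALE class, whose PBX, MEIS and PKNOX proteins bind DNA together with HOX proteins, had a 3-hour origin and 5 a 15-minute origin. Of 15 regulators of HOX transcription 14 had a 3-hour and 13 a 15-minute origin. SUZ12 and EZH2, subunits of the Polycomb complex that methylates histone H3, reached 0.9917 and 0.9671. The Polycomb genes RNF2, EED, CBX2 and RING1 reached 0.9487, 0.9053, 0.9009 and 0.8845, the last 3 of medium efficiency. CTCF, which bounds chromatin loops in the clusters, reached 0.9743, and the lowest of the 14 was RARB with 0.8692. BMI1, another Polycomb gene, had 15-minute origins without one at 3 hours. Of the 6 ParaHox genes, relatives of HOX genes outside the clusters, 5 had a 3-hour and 2 a 15-minute origin, with CDX4 lacking both. The background is again 66.4% and 46.9% of all genes.

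Density fell away beyond the clusters. In the 200 kb on the lower and higher coordinate side there were 1 and 6 origins at HOXA, 3 and 3 at HOXB, 1 and 4 at HOXC and 1 and 1 at HOXD, that is 0.5 to 3 per 100 kb. The median gap between origins inside the spans was 8100, 9150, 8700 and 5350 bp. Of 12 genes that flank the clusters 8 had a 3-hour origin (66.7%, against 66.4% of all genes) and 5 a 15-minute origin (41.7%, against 46.9%). EVX2, next to HOXD13, had a 15-minute origin alone. When origins within 100 kb are joined, each cluster lay in 1 domain, of 151 kb with 17 origins at HOXA, 585 kb with 27 at HOXB, 277 kb with 16 at HOXC and 268 kb with 17 at HOXD. The HOXD domain ended in medium efficiency origins in LNPK (0.9042) and MTX2 (0.9031), which lie to either side of the cluster.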

How the data were processed

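All 4 lists came from EJ30, a bladder carcinoma line. The authors aligned the reads of the heavy-light and light-light DNA, separated on caesium sulfate gradients, to hg38 with Bowtie2 and removed duplicates. They divided each library by its total, joined 100 bp windows with a log2(HL/LL) of at least 2 when within 500 bp, and kept intervals with an efficiency of at least 0.8. The deposited 3-hour values are this efficiency, a fraction, although the file header names them a Z-score, and 2 biological replicates were pooled. The deposited 15-minute values are a score, which the authors made by turning the value of each origin into a Z-score over the list, and the number of replicates is not given in the sources used here. The authors called SNS-seq peaks with MACS2 against genomic DNA, not analysed here, and the deposited peaks were used by position, with no statement whether they count from 0 or 1. Bowtie2, MACS2 and hg38 are also named in the submitters' processing notes.

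Intervals were joined to protein-coding genes of GENCODE 44 with Python 3.11.15, numpy 2.4.6, scipy 1.17.1 and pandas 2.3.3, with an overlap of at least 1 bp, and figures were drawn with matplotlib 3.10.9. The 5′ end is that of the gene record. Counting was tested on simulated data. With 1 list per condition no test was possible. No read counts were used, so the depth behind each value is unknown, and Clopper-Pearson intervals cover counting error alone. Every member was counted. Full values were given for the highest and lowest 5′ end of each cluster, the longest origin, members with no ini-seq 2 interval or with a 15-minute origin alone, and the highest Z-score. The members, lists and rules were chosen with earlier results of these data known. The sequences of some origins are not reported here.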

Additional observations from a re-analysis of the deposited data

How the results depend on the processing

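Of 57 alternatives over 17 results, 42 stayed within 1.5 times a count, within the interval of a share or within 0.1 of a correlation, and 15 did not. Among the 42, the HOX genes with an origin near the 5′ end numbered 32 at 3 hours and 17 at 15 minutes within 5 kb, and 31 and 20 with any transcript, in place of 25 and 14. In both settings the 15-minute share lay above that of all genes in place of below it. Asking for an origin over the 5′ end itself gave 14 HOX genes at 3 hours and 6 at 15 minutes. Keeping origins with an efficiency of at least 0.9 left 19 in the 4 clusters, with 6 in HOXA, 3 in HOXB, 1 in HOXC and 9 in HOXD, and 84.2% of them were also called at 15 minutes. The share of low efficiency origins called at 15 minutes was 0% when at least 50% of the origin had to be covered, an alternative chosen after seeing the data. The share of origins with an SNS-seq peak was 85.2% for small strands alone and 85.2% for both fractions. Of GC-rich windows 49.1% had a 3-hour origin at a limit of 55% GC and 82.4% at 65%. Spearman's rho of efficiency with paralogue number was 0.13 without HOXB13 and 0.14 with canonical transcripts, the latter also chosen after seeing the data. No paired analysis was possible because each condition has 1 list and no test was made. The lists hold called intervals alone, so an origin just under the limit of the authors cannot be told from unreplicated DNA.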
